A study of Rattus norvegicus with 9 samples.

Results

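The genes described here encode 2 tachykinin precursors (Tac3 and Tac1), the receptor for neurokinin B (Tacr3) and 2 opioid precursors (Pdyn and Penk). They were chosen by name, and all probe sets that the platform annotation assigns to exactly 1 of these symbols were taken, which gave 6 of 31042 probe sets, for 5 of the 14217 genes named this way. Tac3, Tacr3, Tac1 and Penk had 1 probe set each (1387138_at, 1368752_at, 1369309_a_at and 1367949_at), and Pdyn had 2, a bright set (1383294_at) and a dim set (1369882_at). The arrays were Affymetrix rat expression arrays, each with the hypothalamus of 1 female rat. The animals were juvenile (26 days old), early pubertal (29 days) or late pubertal (31 days). There were 3 arrays per stage, numbered 1, 2 and 3 in juvenile, 7, 8 and 10 in early pubertal and 12, 14 and 20 in late pubertal animals. The labels describe all animals as normal, name no treatment and treat the juvenile arrays as controls; they give neither the strain nor the borders of the dissection. In whole hypothalamus a lower level can come from fewer cells of a type or from less RNA per cell, and the arrays cannot tell these apart.

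Tac3 encodes neurokinin B and was called Tac2 in older rodent work; its receptor is the G protein-coupled receptor NK3, the product of Tacr3. In the arcuate nucleus, neurokinin B and dynorphin, which is cut from the Pdyn precursor, are made by the same kisspeptin neurons. There neurokinin B excites these neurons and dynorphin inhibits them through the kappa opioid receptor, and the resulting bursts drive pulses of gonadotropin-releasing hormone (GnRH). Tac1 encodes substance P and neurokinin A, and Penk encodes the enkephalins. Tac1, Pdyn and Penk are also strong in the striatum, so tissue from outside the hypothalamus would carry them.

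The median deposited signal was 102 to 113 on juvenile, 79.8 to 101 on early pubertal and 102 to 122.3 on late pubertal arrays, and levels below are therefore quantile-normalized log2(signal + 16) values unless called signal. Of 15 measured markers of hypothalamic neurons, 13 lay above the signal filter, with Pmch, Avp and Oxt averaging log2 levels above 11, and Sim1 and Peg10 lay below it. Of 13 measured striatal markers, 11 lay above the filter, and Adora2a and Ido1 lay below it. Their summed normalized signal was 1976 to 2076 on juvenile, 1959 to 2118 on early pubertal and 1954 to 2117 on late pubertal arrays, so the stages overlapped, and none was listed at 0. Juvenile replicate 2 stood apart in some markers. Its mean level of the 11 striatal markers above the filter was the lowest of the 9 arrays at 7.29, against 7.41 to 7.56 on the others. By summed striatal signal (1976) it lay within the range of the others. Mean levels of thalamic markers (9.19, against 9.20 to 9.34) were also lowest there. So were those of the 2 cortical and hippocampal markers above the filter (8.51, against 8.56 to 8.99). The summed signal of 7 anterior pituitary markers was the highest there at 3074, against 1388 to 2670. On that array Tshb, a pituitary hormone subunit, had a level of 9.18, against 6.04 to 7.99 on the other arrays. Cga, another subunit, stood at 11.17, against 10.02 to 11.10. Lhb (7.17) and Fshb (6.16) lay within the range of the other arrays, and Gh1, Prl and Pou1f1 lay below the signal filter. The ratio of 3' to 5' signal of the beta-actin control, a measure of RNA integrity, was 3.16 on juvenile replicate 2. It was 2.14 to 3.24 on the other arrays, and its bearing on the levels was not tested.

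No probe set of these genes passed the test between any stages. Limma with Benjamini-Hochberg adjustment called 0 of the 6 in each of the 3 comparisons, where it called 0% of all 18625 tested probe sets in early pubertal against juvenile animals, 0% in late pubertal against juvenile animals and 0% in late against early pubertal animals. Before adjustment, 0 of the 6 had a limma p under 0.05 between early pubertal and juvenile animals, where 4.46% of all tested probe sets (831) did, and 1, the bright Pdyn set, had one between late pubertal and juvenile animals, where 4.14% (772) did. Between late and early pubertal animals 0 of the 6 had one, and 5.21% of all (971) did. Arrays of the stages did not overlap for Tac3, higher in early pubertal than in juvenile animals, as for 3.86% of all tested probe sets. They did not overlap for the bright Pdyn set, higher in late pubertal than in juvenile animals, as for 5.9% of all. They also did not overlap for Tac3 in the direction of lower in late than in early pubertal animals, as for 5.37% of all. Both comparisons with juvenile animals share the 3 juvenile arrays, and both separations of Tac3 rest on the same 3 early pubertal arrays. By limma's F test over the 3 stages 0 of 18625 probe sets passed and 786 had an unadjusted p under 0.05, and the adjusted p of the 6 ran from 0.974 to 0.985.

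**Figure D1:**
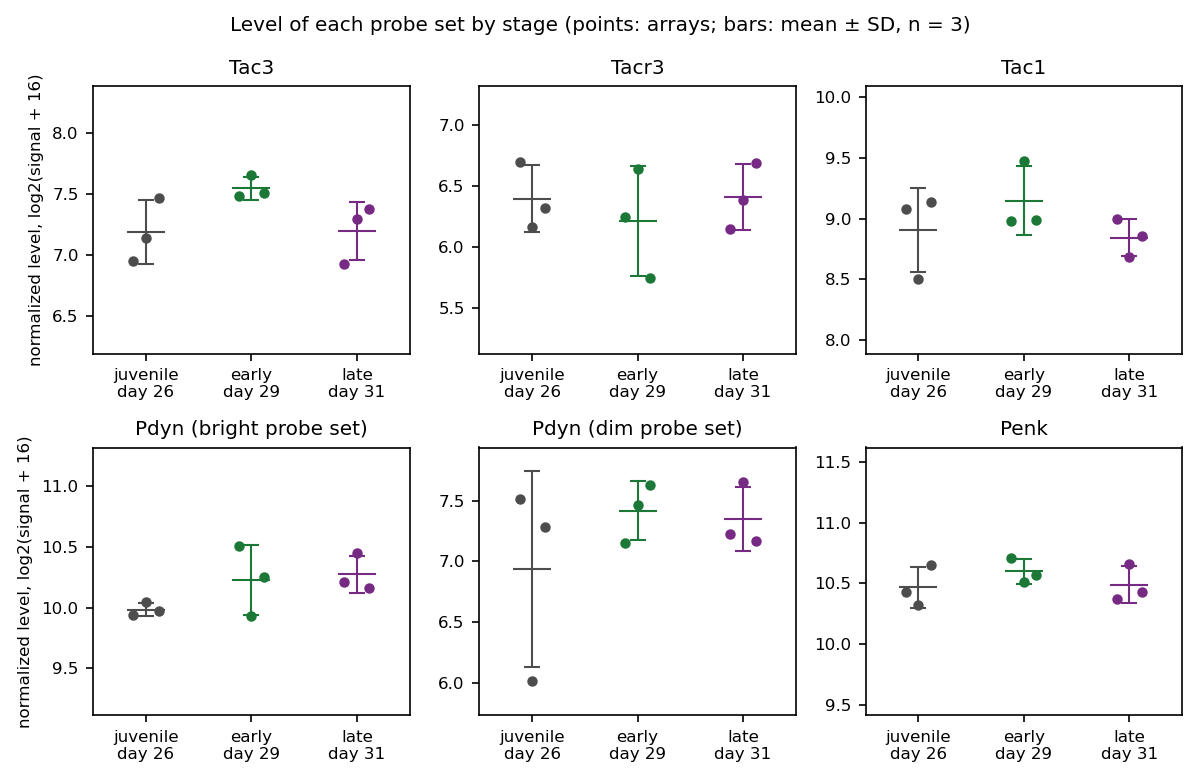
Normalized level, as log2(signal + 16), of each probe set on juvenile (day 26), early pubertal (day 29) and late pubertal (day 31) arrays; points are arrays, horizontal bars the mean and whiskers the SD (n = 3). The 3 early pubertal Tac3 points lie at 7.48 to 7.65, above the other 6, and the dim Pdyn set has 1 juvenile point at 6.02.

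Tac3 had its highest normalized levels, but not its highest deposited signals, in early pubertal animals. The deposited signals were 120, 132 and 161 in juvenile, 161, 163 and 133 in early pubertal and 105, 143 and 177 in late pubertal animals, always in the order of the replicate numbers. The signals of the stages overlapped. After normalization the levels were 6.95, 7.14 and 7.47 in juvenile, 7.48, 7.65 and 7.51 in early pubertal and 6.92, 7.29 and 7.37 in late pubertal animals. All 3 early pubertal levels then lay above all others, but the highest juvenile array, replicate 3, lay next to the lowest early pubertal array, replicate 7. The early pubertal mean was 7.55 ± 0.09 (SD, n = 3), against 7.19 ± 0.26 in juvenile animals. The log2 difference was 0.36 ± 0.17 (SE), a fold of 1.29, with a 95% interval of −0.01 to 0.74 and a limma adjusted p of 0.994. In late pubertal animals the mean was 7.20 ± 0.24 (SD, n = 3), which was −0.35 ± 0.17 (SE) from early pubertal animals (95% interval −0.73 to 0.02, limma adjusted p 0.914) and 0.01 ± 0.17 from juvenile animals (95% interval −0.36 to 0.39, limma adjusted p 0.9998). An exact two-sided permutation test gave p = 0.1 for early pubertal against juvenile and for late against early pubertal arrays, the smallest value that 3 against 3 can reach.

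**Figure D2:**
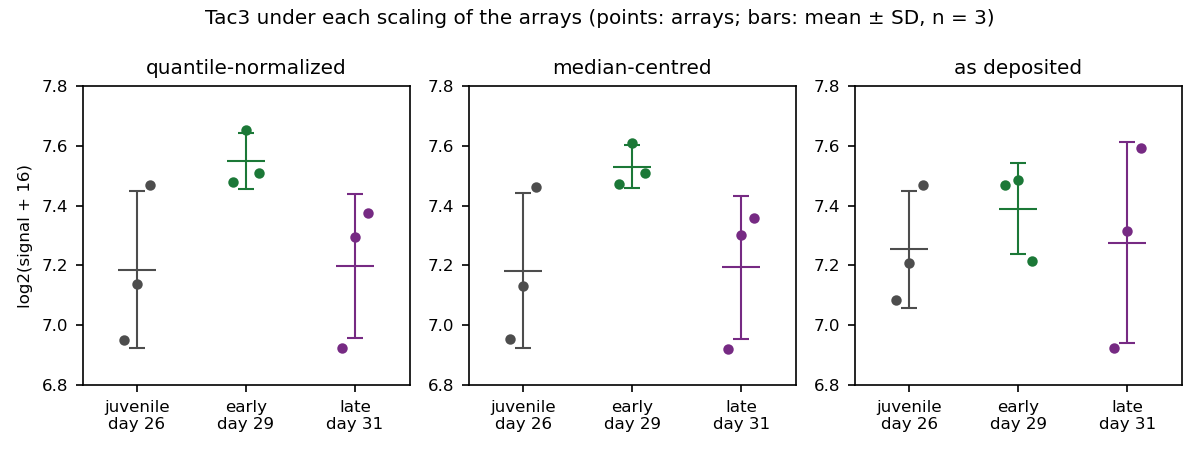
Tac3 as log2(signal + 16) by stage under 3 scalings of the arrays; points are arrays, horizontal bars the mean and whiskers the SD (n = 3). Early pubertal arrays lie above the other stages after quantile normalization or median centring and overlap with them as deposited, where early pubertal replicate 10 lies at 7.21.

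The separation of Tac3 rested on scaling the arrays to each other. After subtraction of every array's median the early pubertal arrays again did not overlap with the other stages, and the log2 difference from juvenile animals was 0.35. On the level as deposited, all tested probe sets had a median difference of −0.24 between early pubertal and juvenile arrays and of 0.22 between late and early pubertal arrays. The Tac3 difference from juvenile animals was then 0.14 ± 0.21 (SE, n = 3 per stage), or 0.38 relative to that median, and the difference of late from early pubertal animals was −0.11 ± 0.21, or −0.34 relative to the median. Without juvenile replicate 3, whose level was the nearest, the early pubertal difference was 0.50, and without juvenile replicate 1 it was 0.24.

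Tacr3, the receptor that neurokinin B acts on, was dim and varied within each stage. Its mean level lay at the 40.7th percentile of all probe sets, just above the filter at the 40th. Its signals were 96.5, 60.3 and 63.8 in juvenile, 60.3, 76.1 and 27.2 in early pubertal and 56.2, 68.2 and 104 in late pubertal animals. The normalized levels were 6.70, 6.17 and 6.32 in juvenile, 6.25, 6.64 and 5.74 in early pubertal and 6.15, 6.39 and 6.69 in late pubertal animals. The 3 stages overlapped throughout, and early pubertal replicate 10 was the lowest array. The early pubertal mean was 6.21 ± 0.45 (SD, n = 3), against 6.40 ± 0.28 in juvenile animals, a log2 difference of −0.19 ± 0.26 (SE) with a 95% interval of −0.75 to 0.37. That difference was −0.39 on the level as deposited, or −0.15 relative to all probe sets, and 0.05 without early pubertal replicate 10. The late pubertal mean of 6.41 ± 0.27 was 0.01 ± 0.26 from juvenile animals (95% interval −0.55 to 0.57). From early pubertal animals it was 0.20 ± 0.26 (95% interval −0.36 to 0.76), with 0.42 on the level as deposited and −0.04 without early pubertal replicate 10. The limma adjusted p was 0.994, 0.9998 and 0.942 for these 3 differences.

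Tac1, the substance P and neurokinin A precursor, was read by a probe set whose suffix marks it as shared by several transcripts of the gene, so its splice forms were not separated. Its signals were 620, 367 and 534 in juvenile, 481, 596 and 405 in early pubertal and 483, 398 and 528 in late pubertal animals. The normalized levels were 9.08, 8.51 and 9.14 in juvenile, 8.98, 9.47 and 8.98 in early pubertal and 8.99, 8.68 and 8.86 in late pubertal animals. Juvenile replicate 2 was the lowest and early pubertal replicate 8 the highest array, and the other 7 lay between 8.68 and 9.14. The mean was 9.15 ± 0.28 (SD, n = 3) in early pubertal against 8.91 ± 0.35 in juvenile animals, a log2 difference of 0.24 ± 0.18 (SE, 95% interval −0.15 to 0.63, limma adjusted p 0.994). That value was 0.04 without juvenile replicate 2 and 0.08 without early pubertal replicate 8, and on the level as deposited it was −0.02, or 0.22 relative to all probe sets. In late pubertal animals, with a mean of 8.84 ± 0.16, the difference was −0.06 ± 0.18 from juvenile animals (95% interval −0.45 to 0.33) and −0.26 without juvenile replicate 2. From early pubertal animals it was −0.30 ± 0.18 (95% interval −0.69 to 0.09, limma adjusted p 0.914), but −0.06 on the level as deposited and −0.14 without early pubertal replicate 8. Early and late pubertal arrays overlapped only through early pubertal replicates 7 and 10 and late pubertal replicate 12, at 8.98, 8.98 and 8.99, and with median centring the stages no longer overlapped, although early pubertal replicate 7 and late pubertal replicate 12 both stood at 8.96.

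Pdyn, the dynorphin precursor, was read by 2 probe sets that ordered the arrays differently. The bright set had signals of 1141, 1096 and 970.5 in juvenile, 1407, 818 and 1018 in early pubertal and 1146, 1390 and 1313 in late pubertal animals. All 3 late pubertal signals lay above the juvenile ones, the nearest pair being late pubertal replicate 12 and juvenile replicate 1, and early pubertal animals held both the lowest and the highest signal of the 9 arrays. Its normalized levels were 9.94, 10.04 and 9.97 in juvenile, 10.50, 9.93 and 10.25 in early pubertal and 10.21, 10.45 and 10.16 in late pubertal animals. The late pubertal mean was 10.27 ± 0.15 (SD, n = 3), against 9.98 ± 0.06 in juvenile animals. The log2 difference was 0.29 ± 0.13 (SE), a fold of 1.22, with a 95% interval of 0.01 to 0.57, an unadjusted limma p of 0.0415 and a limma adjusted p of 0.9998. It was 0.26 on the level as deposited and 0.25 with median centring, and the stages stayed apart under both. The exact two-sided permutation p was 0.1, the smallest possible. In early pubertal animals the mean was 10.23 ± 0.29, a difference of 0.24 ± 0.13 from juvenile animals (95% interval −0.03 to 0.52). That difference was −0.02 on the level as deposited, 0.22 relative to all probe sets, and 0.11 without early pubertal replicate 7. Late and early pubertal animals differed by 0.05 ± 0.13 (95% interval −0.23 to 0.32), and by 0.27 ± 0.16 on the level as deposited (limma adjusted p 0.344).

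The dim Pdyn set had signals of 192, 52.9 and 139 in juvenile, 125 (replicate 7), 142 and 145 in early pubertal and 132, 188 and 152 in late pubertal animals. Its normalized levels were 7.52, 6.02 and 7.28 in juvenile, 7.15, 7.46 and 7.63 in early pubertal and 7.22, 7.65 and 7.17 in late pubertal animals. Juvenile replicate 2 was more than 1 log2 unit below every other array, while on the bright set it was the highest of the 3 juvenile arrays. The SD within stages of the dim set was 0.51, at the 98.0th percentile of tested probe sets, against 0.19 for the bright set and a median of 0.17 over all tested probe sets. The early pubertal difference from juvenile animals was 0.48 ± 0.32 (SE, n = 3 per stage), 0.23 on the level as deposited and 0.02 without juvenile replicate 2. The late pubertal difference was 0.41 ± 0.32 (limma adjusted p 0.9998) and −0.05 without that array, so the dim set did not separate late pubertal from juvenile animals as the bright set did. Late pubertal replicate 14 was the highest late pubertal array on both sets, and early pubertal replicate 7 was the highest early pubertal array on the bright set and the lowest on the dim set.

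**Figure D3:**
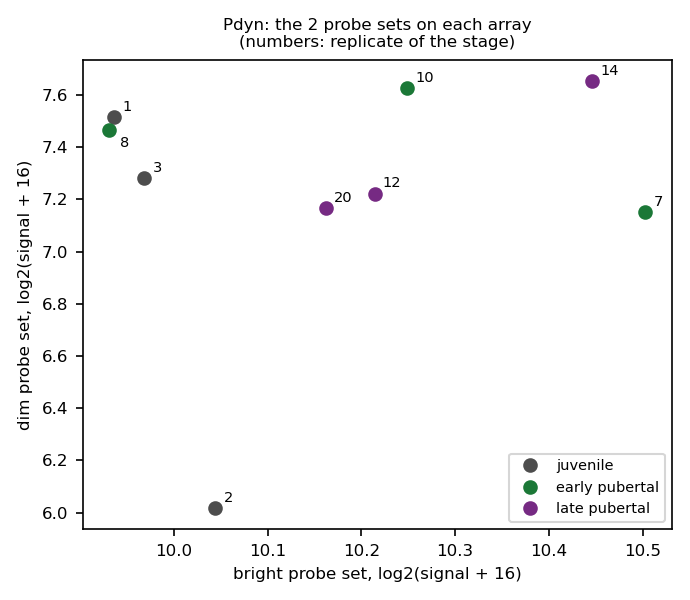
Normalized levels, log2(signal + 16), of the bright (horizontal) and dim (vertical) Pdyn probe sets on each of the 9 arrays, coloured by stage and numbered by replicate. Juvenile replicate 2 lies at 6.02 on the dim set and 10.04 on the bright set, and the other arrays lie between 7.15 and 7.65 on the dim set.

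Penk, the enkephalin precursor, was the steadiest of the 6 probe sets across arrays. Its signals were 1604, 1321 and 1556 in juvenile, 1627, 1259 and 1292 in early pubertal and 1282, 1616 and 1583 in late pubertal animals. The normalized levels were 10.43, 10.32 and 10.65 in juvenile, 10.71, 10.51 and 10.57 in early pubertal and 10.37, 10.66 and 10.43 in late pubertal animals, a range of 0.39 over all arrays. Every stage overlapped with the other stages. The early pubertal mean was 10.60 ± 0.10 (SD, n = 3), against 10.47 ± 0.17 in juvenile animals, a log2 difference of 0.13 ± 0.10 (SE) with a 95% interval of −0.09 to 0.36. It was −0.10 on the level as deposited, or 0.13 relative to all probe sets. The late pubertal mean was 10.49 ± 0.15, which was 0.02 ± 0.10 from juvenile animals (95% interval −0.20 to 0.25) and −0.11 ± 0.10 from early pubertal animals (95% interval −0.33 to 0.11), where the level as deposited gave 0.10. The limma adjusted p was 0.994, 0.9998 and 0.923 for these 3 differences.

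**Figure D4:**
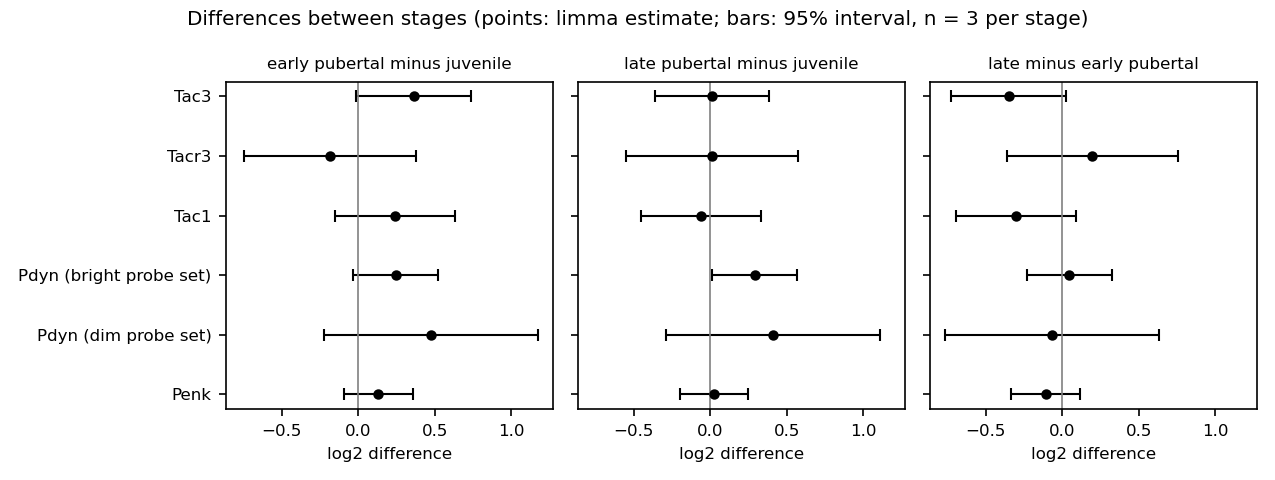
Log2 difference between stages for each probe set from the limma fit, with 95% intervals (n = 3 per stage), for early pubertal minus juvenile, late pubertal minus juvenile and late minus early pubertal animals. The interval excludes 0 only for the bright Pdyn set in late pubertal minus juvenile animals (0.01 to 0.57), before adjustment over all probe sets.

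The stage order of the means was thus early pubertal, late pubertal and juvenile for Tac3 and Penk. For Tac1 it was early pubertal, juvenile and late pubertal, for Tacr3 late pubertal, juvenile and early pubertal, and for the bright Pdyn set late pubertal, early pubertal and juvenile. For every pair of neighbouring means in these orders the 95% interval of the difference included 0. Changing the prior, the constant before the log, the filter or the array weights, or fitting only the 6 arrays compared, gave no limma call for any of the 5 genes.

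The animals were then compared with each other, to ask whether these genes went up and down together. Over the 9 arrays 15 relations were computed, 10 between pairs of the 5 genes (bright set for Pdyn) and 5 with the mean level of the striatal markers, and 0 passed after Benjamini-Hochberg adjustment over the 15. Tac3 and Penk had the highest correlation, with Pearson's r = 0.63 (exact permutation p = 0.0763, adjusted 0.749) and Spearman's rho = 0.60 (exact p = 0.0968, adjusted 0.666). Without the 2 arrays farthest from the Tac3 median r was 0.46, and after each array was centred on its stage mean it was 0.50 (exact permutation within stages, p = 0.347). The same check, which left out the 2 arrays farthest from the median of the first-named gene of each pair, moved other relations more. Tac3 and Tac1 had r = 0.42 (exact permutation p = 0.271) over the 9 arrays and 0.96 without the 2 arrays, and Pdyn and Penk had 0.52 (exact permutation p = 0.154) and −0.15, so these values depended on the arrays included. Tac3 and Pdyn, the neurokinin B and dynorphin precursors of the arcuate kisspeptin neurons, had r = 0.10 (exact permutation p = 0.802) and rho = 0.00 (exact p = 1). Without the 2 arrays their r was −0.17, and centred on stage means it was −0.14 (exact permutation p = 0.671). Tac3 and its receptor gene Tacr3 had r = −0.06 (exact permutation p = 0.878) and rho = −0.05 (exact p = 0.912).

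Tac1 and Pdyn had the most negative correlation of the 15 within the stages. Their r was −0.41 over the 9 arrays (exact permutation p = 0.279) and −0.70 after centring on stage means (exact permutation within stages, p = 0.0324, adjusted 0.486 over the 15 relations), so the relation failed the correction. Early pubertal replicate 8 had the highest Tac1 and the lowest Pdyn level of its stage, and late pubertal replicate 14 had the lowest Tac1 and the highest Pdyn level. The mean striatal marker level correlated most with Penk, at r = 0.55 (exact permutation p = 0.124, adjusted 0.749) and rho = 0.38 (exact p = 0.313). For Penk r was 0.69 without the 2 arrays farthest from its median. After centring on stage means it was also 0.69 (exact permutation within stages, p = 0.130, adjusted 0.648). The striatal marker level had r = 0.29 with Tac1 (exact permutation p = 0.435) and r = 0.06 with Pdyn (exact permutation p = 0.890). The Tac1 value turned to −0.38 without juvenile replicate 2. The part of tissue from outside the hypothalamus in these levels was not tested further.

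Among 10595 other tested genes, each by its brightest probe set, those with the most similar pattern over the 9 arrays were taken by Pearson's r, as a description with no test because they were picked as the highest. For Tac3 they were Gpr89b (r = 0.96), Mars1 (0.96), the cytosolic methionyl-tRNA synthetase gene, and Mettl3 (0.94), the catalytic subunit of the RNA m6A methyltransferase. For Tacr3 they were Zfp593 (0.91), the membrane progestin receptor gene Paqr8 (0.91) and the scaffold protein gene Nherf2 (0.88). For Tac1 they were Ankrd46 (0.96), Zmym2 (0.96) and Por (0.94), the reductase that supplies electrons to cytochrome P450 enzymes. For Pdyn they were Laptm4b (0.94), Fntb (0.93), the farnesyltransferase beta subunit, and Cisd2 (0.91). For Penk they were the potassium channel gene Kcnk13 (0.97), Sarnp (0.95) and Nostrin (0.91). None of these 15 genes is in the pathway lists, and with so many genes over 9 arrays the tenth-ranked r still lay between 0.83 and 0.92.

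Other genes of the same signalling were read by role, each by its brightest probe set. Of 7 ligand genes, which include the 4 precursors above, 6 were measured and 5 lay above the filter; Pomc lay below it and Tac4 was not analysed here. In early pubertal against juvenile animals 0 of the 5 were called and 0 had an unadjusted p under 0.05, beside 0% and 4.46% of all tested probe sets. Their median log2 difference was 0.24, with 4 of 5 above 0, beside a median of −0.00 over all tested probe sets. On the level as deposited the median was −0.02, with 1 of 5 above 0, beside −0.24 over all. In late against early pubertal animals 0 of 5 were called, the median was −0.27 and 4 of 5 lay below 0, beside 0.00 over all, while on the level as deposited the median was −0.03 with 3 of 5 below 0, beside 0.22 over all. The fifth ligand was Pnoc, the nociceptin precursor. Its levels were 7.77, 7.95 and 7.66 in juvenile, 7.56, 8.02 and 7.78 in early pubertal and 7.39, 7.59 and 7.56 in late pubertal animals. All late pubertal levels lay below the juvenile ones, as for 5.52% of all tested probe sets lower in late pubertal animals, but on the level as deposited the stages overlapped. The difference was −0.28 ± 0.15 (SE, n = 3 per stage, limma adjusted p 0.9998) from juvenile and −0.27 ± 0.15 from early pubertal animals (limma adjusted p 0.914), where the level as deposited gave −0.03.

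Of 7 receptor genes, all were measured and 4 lay above the filter, while the neurokinin 2 receptor gene Tacr2, the mu opioid receptor gene Oprm1 and the delta opioid receptor gene Oprd1 lay below it. Of the 4, 0 were called in any comparison, beside 0% of all tested probe sets. None of the 4 had an unadjusted limma p under 0.05 in any comparison. Of all tested probe sets 4.46% had one in early pubertal against juvenile, 4.14% in late pubertal against juvenile and 5.21% in late against early pubertal animals. The median difference was −0.10 in early pubertal and −0.08 in late pubertal against juvenile animals. On the level as deposited it was −0.33 and −0.09, beside −0.24 and −0.02 over all tested probe sets. Tacr1, the substance P receptor gene, differed by −0.22 ± 0.21 (SE, n = 3 per stage; −0.46 on the level as deposited) in early pubertal and −0.11 ± 0.21 in late pubertal from juvenile animals, and its second, dim probe set by 0.24 and 0.31. Oprk1 encodes the kappa opioid receptor on which dynorphin acts. Its bright probe set had levels of 7.89, 7.87 and 8.06 in juvenile, 8.27, 7.84 and 7.65 in early pubertal and 8.14, 7.39 and 7.54 in late pubertal animals. The late pubertal difference on that set was −0.25 ± 0.20 from juvenile animals and −0.23 ± 0.20 from early pubertal animals, where the level as deposited gave 0.00. A second Oprk1 set gave −0.13 in late pubertal against juvenile animals. The dimmest, below the filter, gave 0.60 ± 0.27 there and 0.72 ± 0.27 in early pubertal animals in the fit with no filter, so the probe sets of this receptor gave differences of opposite sign. Oprl1, the nociceptin receptor gene, differed by −0.11 ± 0.14 in late from early pubertal animals, and by 0.12 on the level as deposited. Its other probe sets gave −0.29 ± 0.18 and −0.20 ± 0.28 there in the fit with no filter.

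**Figure D5:**
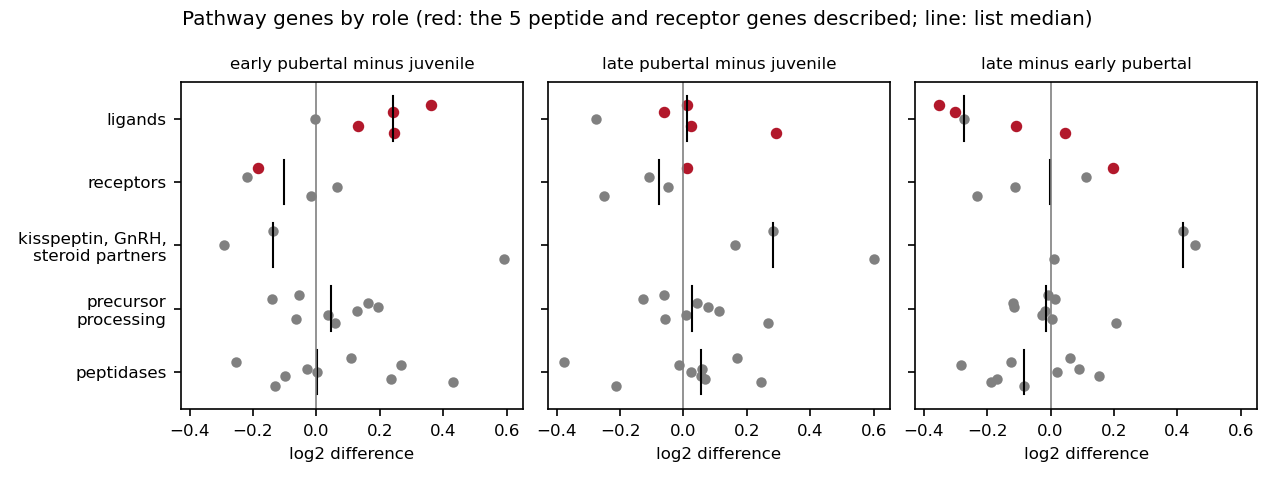
Log2 differences between stages, from the limma fit, of the tested genes of 5 role-based lists; each point is a gene by its brightest probe set, red points are Tac3, Tacr3, Tac1, Pdyn and Penk, and the black line is the list median. Ligands have a median of 0.24 in early pubertal minus juvenile animals and of −0.27 in late minus early pubertal animals, and no gene passed the test. On the level as deposited these medians are −0.02 and −0.03, beside −0.24 and 0.22 over all tested probe sets.

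Among 10 kisspeptin, GnRH and steroid receptor partners, 8 were measured and only Npvf, Pgr and Prlr lay above the filter; Kiss1 was not analysed here. In each comparison 0 of the 3 were called and 1 had an unadjusted p under 0.05, which 4.46% of all tested probe sets had in early pubertal against juvenile, 4.14% in late pubertal against juvenile and 5.21% in late against early pubertal animals. Pgr, the progesterone receptor gene, had levels of 6.29, 6.90 and 7.04 in juvenile, 6.52, 6.32 and 6.51 in early pubertal and 7.07, 6.72 and 6.93 in late pubertal animals. Its difference was −0.29 ± 0.21 (SE, n = 3 per stage) in early pubertal from juvenile animals and 0.45 ± 0.21 in late from early pubertal animals (limma adjusted p 0.914), with −0.47 and 0.67 on the level as deposited. Late and early pubertal arrays did not overlap, as for 5.97% of all tested probe sets higher in late pubertal animals, and early pubertal animals had the lowest mean. Prlr, the prolactin receptor gene, differed by 0.42 ± 0.23 in late from early pubertal and by 0.28 ± 0.23 in late pubertal from juvenile animals, with 0.65 and 0.28 on the level as deposited. Its second tested probe set gave 0.02 and −0.00, and a set below the filter 0.01 and −0.52 in the fit with no filter. Npvf, the gene of the gonadotropin-inhibiting RFamide peptides, had a difference of 0.60 ± 0.23 in late pubertal from juvenile animals. These stages did not overlap, as for 5.9% of all tested probe sets higher in late pubertal animals. In early pubertal from juvenile animals the difference was 0.59 ± 0.23, with overlap and 0.34 on the level as deposited.

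Of 9 genes for enzymes and helpers that process peptide precursors, 8 were measured and tested, and 0 were called in any comparison. The median difference was 0.05 in early pubertal and 0.03 in late pubertal against juvenile animals. On the level as deposited it was −0.16 and 0.02, beside −0.24 and −0.02 over all tested probe sets. In late pubertal against juvenile animals 1 of 8 had an unadjusted p under 0.05, beside 4.14% of all tested probe sets. It was Cpd, a carboxypeptidase gene, at 0.27 ± 0.10 (SE, n = 3 per stage), with −0.02 on its dim probe set. From early pubertal animals Cpd stood at 0.21 ± 0.10, with 0.43 on the level as deposited. The dim set, below the filter, gave the opposite sign there, −0.12 ± 0.13 in the fit with no filter. In early pubertal against juvenile animals 1 of 8 had one, beside 4.46% of all. It was Pcsk1n, the gene of an inhibitor of prohormone convertase 1, at 0.19 ± 0.09, but 0.02 on the level as deposited. In late from early pubertal animals Pcsk1n stood at −0.12 ± 0.09, and at 0.05 as deposited. Pam, which amidates peptides such as neurokinin B and substance P, differed by 0.13 ± 0.06 in early pubertal and 0.11 ± 0.06 in late pubertal from juvenile animals, and by −0.07 in early pubertal animals on the level as deposited. Its dim probe sets gave −0.36 and 0.28 in early pubertal animals in the fit with no filter.

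Of 10 genes for peptidases that cut tachykinins or enkephalins, 9 were measured and tested and Dpp3 was not analysed here. None was called in any comparison, and the median was 0.00 in early pubertal and 0.06 in late pubertal against juvenile animals. On the level as deposited it was −0.19 and 0.03, beside −0.24 and −0.02 over all tested probe sets. In each of these comparisons with juvenile animals 1 of 9 had an unadjusted p under 0.05, beside 4.46% and 4.14% of all tested probe sets. Prep, the prolyl endopeptidase gene, had levels of 8.09, 7.73 and 7.89 in juvenile, 7.72, 7.68 and 7.56 in early pubertal and 7.66, 7.36 and 7.56 in late pubertal animals. It lay below all juvenile arrays at both pubertal stages. The difference was −0.25 ± 0.14 (SE, n = 3 per stage) in early pubertal animals, where 4.43% of all tested probe sets were lower without overlap. In late pubertal animals it was −0.38 ± 0.14 (limma adjusted p 0.9998), where 5.52% of all were lower without overlap. On the level as deposited the Prep differences were −0.50 and −0.39, again without overlap. Anpep, the aminopeptidase N gene, which cuts enkephalins, had levels of 6.93, 6.70 and 6.63 in juvenile, 7.26, 7.22 and 7.07 in early pubertal and 6.64, 7.06 and 7.30 in late pubertal animals. Its early pubertal difference was 0.43 ± 0.18 from juvenile animals (limma adjusted p 0.994), without overlap, as for 3.86% of all tested probe sets higher there. On the level as deposited it was only 0.21, and the stages overlapped. Its late pubertal difference from juvenile animals was 0.24 ± 0.18. Npepps, the puromycin-sensitive aminopeptidase gene, differed by −0.28 ± 0.15 in late from early pubertal animals, and by −0.05 on the level as deposited. Ece2, an endothelin-converting enzyme gene, differed there by 0.15 ± 0.12, by 0.39 on the level as deposited and by −0.19 ± 0.11 on its second probe set.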

How the data were processed

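The authors deposited 1 linear signal intensity for every probe set and array, computed with MAS5 per the submitters' processing notes; the sources used here give neither its version nor its target level. Array levels differed by up to 1.41 times in trimmed mean, so values were taken as log2(signal + 16) and quantile-normalized. Probe sets with a mean above the 40th percentile were kept (18625 of 31042, without 57 controls). A linear model with a mean for each stage was fitted in limma 3.58.1 (R 4.3.3), using an intensity trend in the prior; its two-sided p-values were Benjamini-Hochberg adjusted across all tested probe sets (threshold 0.05). Log2 differences carry the fitted SE, understate changes of dim genes, and rest on 3 arrays per stage, whose number limits the precision. The fit was tested on simulated data.

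The members and gene lists were chosen with earlier results of these data known. Named were all 5 members, the 2 genes with the smallest p per list and comparison, and the 3 most correlated genes per member. Gnrh1, Kiss1r, Esr1, Gnrhr and Esr2, which lay below the filter, are described at the end outside this rule. All 87 probe sets of the members, the pathway lists and the cell type markers kept their symbol in the current gene records. Alternatives were constants of 1 and 64, the level as deposited, median centring, no filter and the 60th percentile, no trend, a robust prior, array weights, 6 arrays, a gene's mean or 1 probe set, and leaving out each array.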

Additional observations from a re-analysis of the deposited data

How the results depend on the processing

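No member was called by limma under any alternative that tested it; Tac3, Tacr3 and the dim Pdyn set were left out by the filter at the 60th percentile. Tac3 kept its sign for early pubertal against juvenile and for late against early pubertal animals, as the bright Pdyn set did for late pubertal against juvenile animals. No paired analysis was possible because the stages share no replicate number. On the level as deposited limma called 10 probe sets in early pubertal against juvenile animals, 1 in late pubertal against juvenile, 21 in late against early pubertal animals and 16 by the F test. Array weights gave 1 in late pubertal against juvenile animals. Leaving out arrays gave 0 to 1 there and by the F test, the 1 without juvenile replicate 2. As deposited, early pubertal differences from juvenile were −0.021 for Tac1, −0.016 for Pdyn, −0.10 for Penk and −0.068 for Pam. Late from early pubertal differences were 0.10 for Penk, 0.049 for Pcsk1n, 0.00067 for Oprk1, 0.12 for Oprl1 and 0.16 for the dim Pdyn set. Penk in late pubertal against juvenile animals was −0.0026 as deposited, −0.015 with median centring and −0.035 with array weights, which gave −0.039 for Tac3 and −0.037 for Tacr3. Averaging the probe sets of each gene gave late from early pubertal differences of −0.010 for Pdyn and −0.017 for Ece2. Leaving out 1 array moved late pubertal against juvenile differences over −0.11 to 0.15 for Tac3, −0.13 to 0.16 for Tacr3, −0.26 to 0.053 for Tac1, −0.064 to 0.12 for Penk, −0.051 to 0.70 for the dim Pdyn set and −0.21 to 0.070 for Tacr1. Late against early pubertal differences ran over −0.10 to 0.18 for Pdyn, −0.22 to 0.039 for its dim set, −0.037 to 0.41 for Tacr3 and −0.28 to 0.0010 for Oprl1, and early pubertal against juvenile over −0.40 to 0.048 for Tacr3. As deposited r was 0.31 for Tac3 with Tacr3, 0.20 for Tacr3 with Pdyn and 0.51 for Tacr3 with Penk, and with median centring −0.0030 for Tac3 with Pdyn. With 1 array left out r ran over −0.15 to 0.38 for Tac3 with Pdyn, −0.30 to 0.22 for Tac3 with Tacr3, −0.16 to 0.44 for Tac1 with Penk, −0.38 to 0.58 for Tac1 with the striatal markers and −0.17 to 0.27 for Pdyn with them. The cause of these turns was not tested.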

Other observations

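Several genes of GnRH control lay below the signal filter, at mean log2 levels under 6.30, and were fitted only with no filter. Gnrh1, the gene of the hormone itself, which few scattered neurons make, had signals of 54.6, 69.3 and 55.5 in juvenile, 61.3, 25.2 and 35.6 in early pubertal and 49.4, 62.6 and 46.7 in late pubertal animals. Its log2 difference from juvenile animals was −0.30 ± 0.26 (SE, n = 3 per stage) at the early pubertal stage and −0.17 ± 0.26 at the late pubertal stage. A second Gnrh1 probe set gave the opposite sign, 0.14 ± 0.19 and 0.05 ± 0.19 in the same comparisons. The kisspeptin receptor gene Kiss1r differed by 0.39 ± 0.39 and 0.37 ± 0.39 in these comparisons, and the estrogen receptor alpha gene Esr1 by 0.30 ± 0.20 and 0.20 ± 0.20. The limma adjusted p of Gnrh1, Kiss1r and Esr1 in the fit with no filter was 0.994 at the early and 0.9996 at the late pubertal stage. For the probe set named first for each gene the stages overlapped. The GnRH receptor gene Gnrhr differed by 0.01 ± 0.40 and −0.51 ± 0.40 in these comparisons, and its second probe set by 0.02 ± 0.14 and −0.08 ± 0.14. The estrogen receptor beta gene Esr2 differed by −0.10 ± 0.17 and −0.04 ± 0.17. The stages also overlapped for Esr2 and for the first Gnrhr set.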
